A study of Mus musculus with 48 samples.

Results

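Myoblasts kept without stretch were compared between 2 independent culture experiments, which the sample titles code B27 and B31. The members were taken by their labels, as the 6 non-stretched myoblast samples coded B27 and the 6 coded B31, and they make up 12 of the 48 samples of the series. The series measured mRNA in C2C12 cells, an established mouse myoblast line whose cells fuse to myotubes on differentiation, with and without cyclic stretch of a flexible, collagen-coated culture plate. All 12 samples were undifferentiated C2C12 myoblasts on such plates that were not stretched, collected at 1 h, 3 h and 6 h beside the stretched cells, with 2 samples per experiment and time (replicates 7 and 8 in B27, replicates 9 and 10 in B31). Both groups therefore share the line, the medium and the plates, and the labels give no difference between them other than the code. The samples held between 48447318 and 68856205 counts, with medians of 60441773 in B27 and 58411919.5 in B31. Expression is given as CPM, the count of a gene relative to the library size after scaling with edgeR's TMM factors over these 12 samples, and a fold change is always B31 over B27.

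The summed level of 7 myoblast markers (Myod1, Myf5, Pax7, Cdh15, Des, Msc and Itga7) had a lowest, median and highest value of 1566, 1580 and 1694 CPM in B27 and of 1489, 1561 and 1652 CPM in B31, so the groups overlapped. Desmin (Des), an intermediate filament protein of muscle, was the most abundant of them at a mean of 866 CPM, and Pax7, a transcription factor of muscle stem cells, was at 28.1 CPM. The sum is mostly Des and Itga7, and Myod1, Myf5 and Cdh15 differed as described below. Macrophage markers summed to a median of 1.28 CPM in B27 and 1.30 CPM in B31, with 6 of 7 genes under 1 CPM, Cd68 as the most abundant and Adgre1 and Tyrobp at 0 in every sample. Endothelial markers summed to 1.67 and 1.82 CPM, most of it from Egfl7. The adipocyte list summed to 34.6 and 34.9 CPM with Pparg in the lead, the epithelial list to 54.2 and 50.6 CPM with Krt19, and the fibroadipogenic progenitor list to 132 and 147 CPM with Ly6a. The osteoblast list reached 2597 and 2565 CPM, nearly all of it Spp1, and the smooth muscle list 1579 and 1483 CPM, mostly Des and Acta2, which myoblasts also express. The groups overlapped on each of these sums, but not on every member. Cd34 of the progenitor list ran from 49.9 to 62.5 CPM in B27 and from 64.6 to 75.8 CPM in B31, and Cdh1 of the epithelial list from 1.43 to 1.88 CPM and from 2.13 to 2.76 CPM. Lpl of the adipocyte list ran from 8.96 to 10.2 CPM and from 10.4 to 13 CPM, while Pparg was slightly lower in B31 (-0.16, SE 0.0368, edgeR adjusted p = 0.0177). The markers of blood cells, endothelial cells and fat cells Ptprc, Pecam1 and Adipoq had means of 0.0450, 0.0459 and 0.00573 CPM. In such bulk samples fewer cells of a type and less RNA per cell cannot be told apart. Some samples stood apart from their groups. The 1 h B27 replicate 7 had 3.66% of its counts in the ribosomal RNA gene Rn18s-rs5, against 0.650% to 1.04% in the other B27 samples, and without it 14 genes in place of 22 were called lower in B31 by the rule given below and 8 in place of 12 higher. The stretched 1 h B27 replicate 7 had 5.72% in this gene, against 1.06% to 2.28% in the other stretched B27 samples. Among the stretched samples, the pair of B27 at 3 h had levels of several genes near those of B31, and results are given with and without that time.

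The 2 genes with the lowest p between the experiments, Cyp1a1 and Cyp1b1, are targets of the aryl hydrocarbon receptor (AhR). AhR is a transcription factor that waits in the cytoplasm until it binds a small aromatic molecule, such as a dioxin, a combustion product or a derivative of tryptophan, and then enters the nucleus, pairs with ARNT and binds DNA elements with the core GCGTG. Both genes encode cytochrome P450 enzymes that oxidise such molecules. Ahrr, the AhR repressor, and Tiparp, an ADP-ribosyltransferase, are also induced by the receptor and hold it back.

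Cyp1a1 (chromosome 9, 57687928 to 57703824 of mm10) had a lowest, median and highest level of 13.1, 14.6 and 15.3 CPM in B27 and of 1.88, 2.36 and 2.60 CPM in B31. All 6 B27 samples were high and all 6 B31 samples were low, with no overlap. The log2 fold change was -2.64 (SE 0.0647, edgeR adjusted p = 1.47e-15), that is a level 6.25-fold higher in B27. Cyp1b1 (chromosome 17, 79701537 to 79715061) stood at 172, 177 and 188 CPM in B27 and at 68.7, 77.5 and 83.6 CPM in B31. It was again high in every B27 sample and low in every B31 sample, with a log2 fold change of -1.22 (SE 0.0269, adjusted p = 4.11e-16). Ahrr (chromosome 13, 74211118 to 74292331) was at 17.6, 19.2 and 21.1 CPM in B27 and at 9.55, 10.3 and 10.9 CPM in B31. The 6 B31 samples all lay below the 6 B27 samples, at a log2 fold change of -0.91 (SE 0.0475, adjusted p = 4.83e-10). Tiparp (chromosome 3, 65528410 to 65555518) had 103, 112 and 122 CPM in B27 and 86.2, 89.3 and 94.7 CPM in B31. The groups of Tiparp did not overlap either, but its difference was small (-0.32, SE 0.0270, adjusted p = 4.80e-07).

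Genes were tested with edgeR's quasi-likelihood test, with time in the model, and called where the Benjamini-Hochberg adjusted p was under 0.05 and the absolute log2 fold change reached 0.58. By this rule 3 of the 4 AhR targets were called lower in B31, where 22 of all 15723 genes tested (0.140%) were called lower. The list of 4 was chosen with earlier results of these data known, so its count and median describe it and are no test. The median log2 fold change of the 4 genes was -1.07, beside 0.0044 over all genes tested. The experiment accounted for 99.1% of the sum of squares of log2 CPM over the 12 samples for Cyp1a1, 98.6% for Cyp1b1, 96.6% for Ahrr and 83.7% for Tiparp, against a median of 9.95% over the 11409 genes whose mean reached 100 counts. The receptor gene itself did not move with its targets. Ahr was at 24.5, 26.0 and 27.7 CPM in B27 and at 27, 28.9 and 31.3 CPM in B31, slightly higher in B31 with overlapping groups (0.15, SE 0.0308, adjusted p = 0.00732). Its partner Arnt had medians of 53.1 and 54.1 CPM and an adjusted p of 0.405. Nqo1, a quinone reductase that both AhR and the oxidant sensor NRF2 induce, was at medians of 176 and 151 CPM with overlapping groups (-0.22, SE 0.0473, adjusted p = 0.0235). With the GC trend described further on removed, Nqo1 no longer passed. Other genes that AhR induces elsewhere did not go with the 4 targets in these myoblasts. Aldh3a1, an aldehyde dehydrogenase, had medians of 24.1 and 24.8 CPM (adjusted p = 0.994) and Ugt1a6a, a glucuronosyltransferase, of 2.63 and 3.30 CPM (adjusted p = 0.240), with overlapping groups. Cyp1a2 had medians of 0 CPM and was not tested. These 6 genes, the receptor, its partner and further targets, were chosen after their values were seen.

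**Figure D1:**
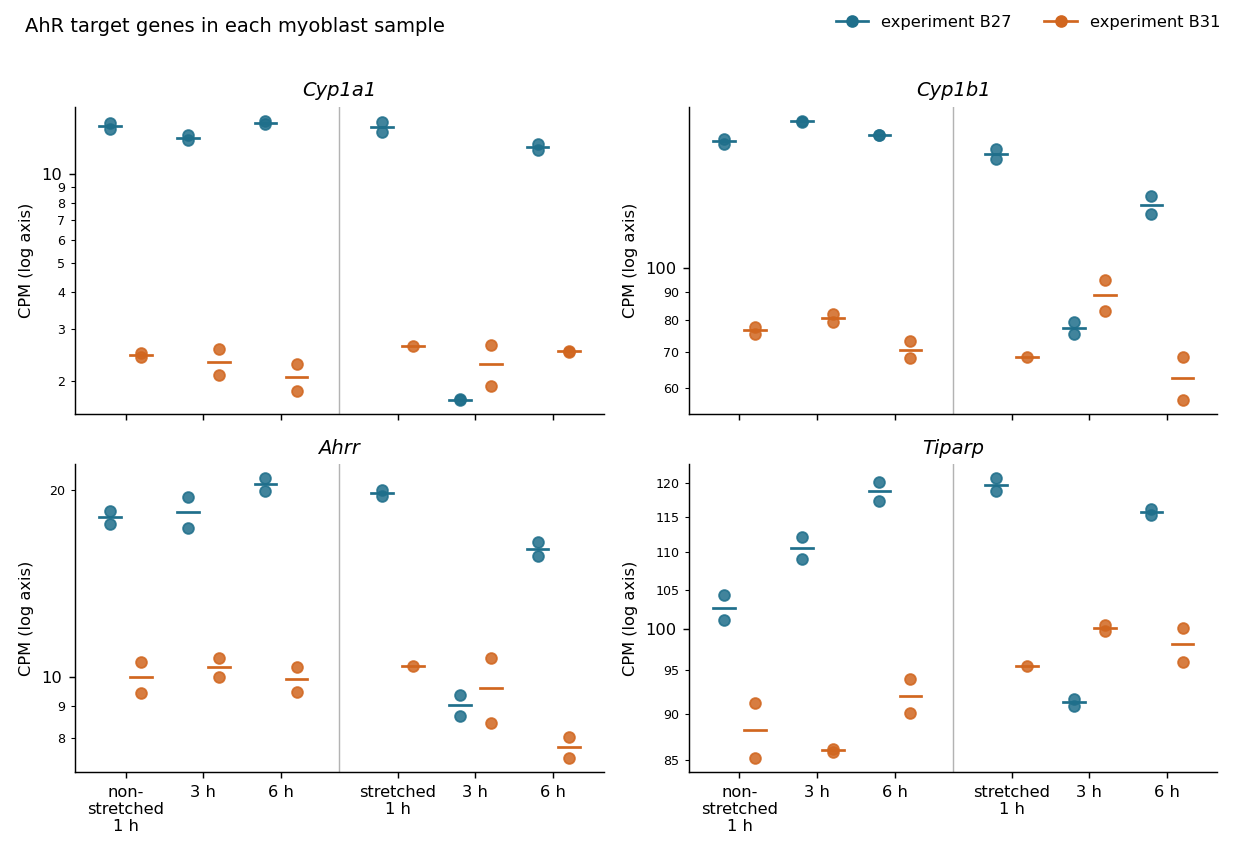
CPM (log axis) of Cyp1a1, Cyp1b1, Ahrr and Tiparp in each non-stretched and stretched myoblast sample coded B27 or B31 by time, with 1 point per sample and a bar at the mean. Without stretch every B27 sample lies above every B31 sample, while the stretched B27 samples at 3 h lie near the B31 samples.

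Because these genes moved together, the 250 bases before the start of the 4 targets are shown, each read 5′ to 3′ on the strand of its gene, from RefSeq on build GRCm38.p6. These starts are those of RefSeq transcripts, while the gene intervals above span all GENCODE transcripts, so the windows of Cyp1a1 and Tiparp lie wholly or partly inside those intervals. The windows are chr9:57697363-57697612 (plus strand) for Cyp1a1, chr17:79715062-79715311 (minus strand) for Cyp1b1, chr13:74292332-74292581 (minus strand) for Ahrr and chr3:65528197-65528446 (plus strand) for Tiparp. Capitals mark GCGTG, or CACGC where it is read on the other strand.
Cyp1a1: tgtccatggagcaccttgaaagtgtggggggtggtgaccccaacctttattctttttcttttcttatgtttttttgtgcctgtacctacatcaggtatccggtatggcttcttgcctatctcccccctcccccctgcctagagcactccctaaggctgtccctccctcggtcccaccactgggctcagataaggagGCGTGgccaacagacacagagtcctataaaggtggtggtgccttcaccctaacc
Cyp1b1: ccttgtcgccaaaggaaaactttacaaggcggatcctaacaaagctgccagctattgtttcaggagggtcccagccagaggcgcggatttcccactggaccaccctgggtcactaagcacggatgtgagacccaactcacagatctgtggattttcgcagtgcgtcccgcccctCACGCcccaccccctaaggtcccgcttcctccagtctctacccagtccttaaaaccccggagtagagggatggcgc
Ahrr: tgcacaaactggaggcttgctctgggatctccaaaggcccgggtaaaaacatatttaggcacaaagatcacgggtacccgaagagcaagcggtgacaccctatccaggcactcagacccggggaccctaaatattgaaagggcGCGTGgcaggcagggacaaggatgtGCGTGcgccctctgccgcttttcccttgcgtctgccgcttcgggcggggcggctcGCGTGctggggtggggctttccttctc
Tiparp: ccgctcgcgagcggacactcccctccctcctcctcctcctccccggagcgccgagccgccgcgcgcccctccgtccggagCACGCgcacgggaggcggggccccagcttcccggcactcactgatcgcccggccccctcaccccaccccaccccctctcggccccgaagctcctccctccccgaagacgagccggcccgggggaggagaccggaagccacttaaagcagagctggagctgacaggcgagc
Cyp1a1 held 1 match, 54 bases before its start, and Cyp1b1 and Tiparp 1 match each on the other strand, at 76 and 170 bases. Ahrr held 3 matches, at 27, 82 and 107 bases. Of 32851 annotated starts, 9250 (28.2%) held GCGTG on either strand in a window of this length, so a match is common and is a description of the sequence only.

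By the rule for named genes, a call with a mean of at least 100 counts, no overlap between the groups and little sequence shared with other genes, 10 genes were lower in B31 and 0 were higher. Beside the AhR targets Cyp1a1, Cyp1b1 and Ahrr these were Inhbb, Adora2a, Ramp3, Cxcl5, Plscr2, Tmem45a and Slc14a1. Inhbb, the beta B subunit of activin and inhibin, a secreted ligand of the TGF-beta family (chromosome 1, 119415465 to 119422248), was at 33.5, 34.3 and 34.8 CPM in B27 and at 18.6, 19.8 and 21.7 CPM in B31. Its B27 samples were close together and well above all B31 samples (-0.78, SE 0.0331, adjusted p = 2.03e-11). Adora2a, a receptor for adenosine (chromosome 10), had 5.38, 5.77 and 6.28 CPM against 2.85, 3.27 and 3.80 CPM. All B31 samples were lower, with a log2 fold change of -0.82 (SE 0.0678, adjusted p = 3.34e-07). Ramp3, an accessory protein of calcitonin family receptors (chromosome 11), had 3.46, 3.73 and 4.46 CPM against 2.27, 2.33 and 2.56 CPM. Cxcl5, a chemokine that attracts neutrophils (chromosome 5), had 7.57, 9.48 and 11.3 CPM against 4.46, 5.83 and 7.22 CPM. Both were low in all B31 samples, at log2 fold changes of -0.69 (SE 0.0752, adjusted p = 1.23e-05) and -0.67 (SE 0.0570, adjusted p = 4.80e-07), although the gap between the groups of Cxcl5 was narrow.

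The Inhbb promoter (chr1:119422249-119422498, minus strand, same source and build) is shown beside those of the AhR targets because its gene had the next smallest adjusted p among the named genes after Cyp1a1 and Cyp1b1.
Inhbb: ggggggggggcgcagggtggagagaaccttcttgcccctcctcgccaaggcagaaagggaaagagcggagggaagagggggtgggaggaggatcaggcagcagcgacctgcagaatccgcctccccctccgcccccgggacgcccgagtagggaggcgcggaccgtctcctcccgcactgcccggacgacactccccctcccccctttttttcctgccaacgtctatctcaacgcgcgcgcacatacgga
It held no GCGTG on either strand, which says only that these letters are not in this window. Of the named genes 6 had a start in the sequence table, and 5 of these starts (83.3%) held the motif, beside 28.2% of all starts. They were those of Cyp1a1, Cyp1b1 and Ahrr and, not shown, of Ramp3 and Tmem45a. The named genes were picked from these data, and Cyp1a1, Cyp1b1 and Ahrr are known AhR targets. The share therefore describes 6 starts and is no test.

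Plscr2, a phospholipid scramblase (chromosome 9), was at 17.8, 19.4 and 21.3 CPM in B27 and at 11.6, 12.3 and 13.7 CPM in B31. Tmem45a, a membrane protein (chromosome 16), had 6.56, 6.81 and 7.29 CPM in B27 and 4.16, 4.50 and 4.71 CPM in B31. Slc14a1, a urea transporter (chromosome 18), had 25.4, 27.2 and 35.3 CPM in B27 and 17.9, 18.4 and 23.1 CPM in B31. For each of the 3 genes all B31 samples lay below all B27 samples, with log2 fold changes of -0.66 (SE 0.0408), -0.62 (SE 0.0541) and -0.60 (SE 0.0379) and adjusted p-values of 6.75e-09, 6.21e-07 and 7.14e-09. The levels of Slc14a1 were highest at 6 h in both experiments, and the experiment held 76.8% of its sum of squares and time 20%. For the other genes of this group the share of the experiment ran from 69.5% for Cxcl5 to 97.6% for Inhbb. Adora2a, Ramp3, Cxcl5, Plscr2, Tmem45a and Slc14a1 were not called at 1 h alone or when tested against the fold threshold. Ramp3 was also not called at 6 h alone, nor Slc14a1 without the 6 h B31 replicate 9. Cyp1a1, Cyp1b1, Ahrr and Inhbb kept their calls in all 26 other settings.

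No gene called higher in B31 met the rule. Of the 12 called higher (0.0763% of genes tested), 10 had a mean under 100 counts. The remaining 2, which were chosen after their values were seen except that Dcn is also a called member of the matrix list, were Itga4 and Dcn. Itga4, the alpha 4 integrin subunit that binds fibronectin and VCAM1, had 2.31, 2.61 and 3.29 CPM in B27 and 3.26, 4.30 and 5.47 CPM in B31. Dcn, the small matrix proteoglycan decorin, had 3.05, 3.31 and 4.76 CPM in B27 and 4.15, 4.95 and 8.49 CPM in B31. Both B31 samples were above both B27 samples at each time, and the groups overlapped only across times (Itga4 0.65, SE 0.0952, adjusted p = 4.06e-04, Dcn 0.64, SE 0.0786, adjusted p = 5.98e-05). Under other settings Itga4 ran from 0.29 to 0.87 and Dcn from 0.34 to 0.88. Neither was called at 1 h alone, at 6 h alone or when tested against the fold threshold. Dcn was also not called without time in the model or without the 3 h B27 replicate 8.

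Beyond these genes the experiments differed by small amounts. At an adjusted p under 0.05 whatever the fold, 335 genes (2.13%) were higher in B31 and 386 (2.46%) higher in B27. Of these 721 genes, 95.3% had a log2 fold change under the threshold of 0.58, and the median absolute log2 fold change over all genes tested was 0.0541. In 290 genes (1.84%) the 6 B31 values lay entirely to one side of the 6 B27 values, and 16 of the 34 called genes were among them. Among the calls 20 had a mean under 100 counts and are less precisely measured, and 3 (Hist1h2ah, Hist1h2af and Gm9830) share at least 20% of their stretches of 31 bases with other genes, so their counts depend on how reads were divided. Time held a median of 26.7% of the sum of squares per gene, the experiment 9.95%, their interaction 9.93% and the samples within a group 38.5%. Their shares of the degrees of freedom are 18.2%, 9.09%, 18.2% and 54.5%, and the mean share of the experiment was 16%.

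**Figure D2:**
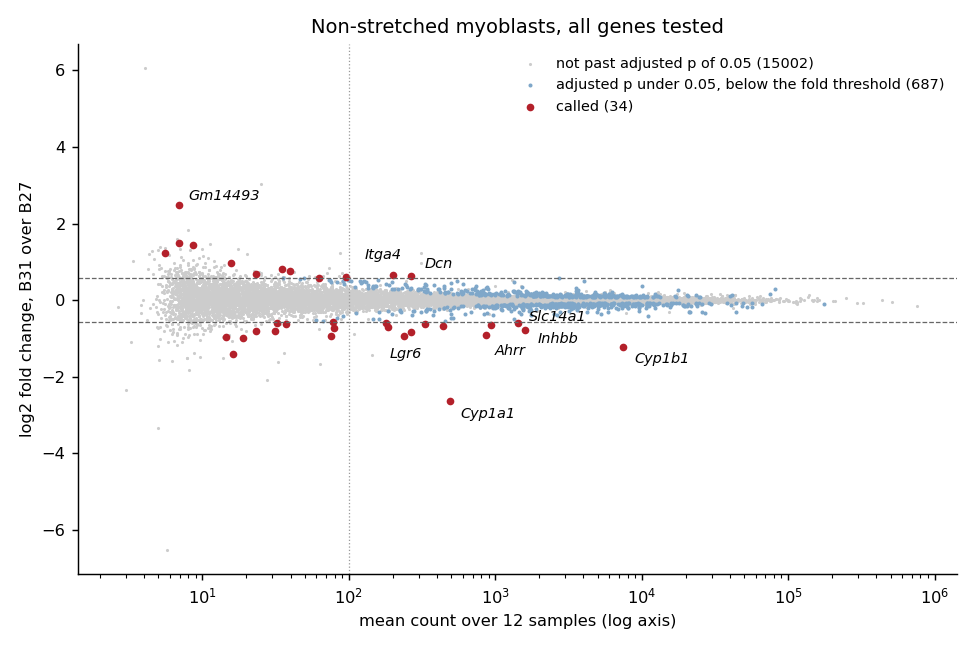
Log2 fold change of B31 over B27 against the mean count over the 12 samples (log axis) for the 15723 genes tested, with the threshold of 0.58 in either direction (dashed) and a mean of 100 counts (dotted). The 34 called genes are red and the other genes with an adjusted p under 0.05 blue, and Cyp1a1 and Cyp1b1 lie below the other genes of similar mean count.

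The mean distance between 2 samples, the root mean square difference of log2 CPM over the same 11409 genes, was 0.171 within an experiment and time, 0.185 between times of an experiment, 0.189 between experiments at a time and 0.198 where both differed. The ranges of these 4 kinds of pair overlapped. On the first principal component, which held 22.3% of the variance, B27 samples ran from -1.84 to 15.2 and 5 of the 6 B31 samples from -10.7 to -2.47, below all of them. Only the 3 h B31 replicate 10, at 2.07, lay among the B27 samples. The groups overlapped on the second component (16.1%).

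The difference between experiments was present at each time for the AhR targets. For Cyp1a1 the log2 fold changes at 1 h, 3 h and 6 h were -2.57, -2.50 and -2.85, for Cyp1b1 -1.16, -1.19 and -1.32, and for Ahrr -0.86, -0.82 and -1.04. Inhbb had values of -0.77, -0.70 and -0.86. A test of whether the difference depended on time found 0 of 15723 genes (0%) with edgeR at an adjusted p under 0.05, with 775 at an unadjusted p under 0.05, and 10 with the likelihood ratio test of DESeq2. With edgeR the count was 17 with the replicate number as a fixed block and 6 with the GC trend described further on removed. It was 197 without the 1 h B31 replicate 10 and 18 without the 1 h B31 replicate 9. The count of 0 therefore depends on the model and on single samples. Igfbp5, which encodes a binding protein of insulin-like growth factors, shared the lowest adjusted p (0.0640) with Gm37352. Igfbp5 had log2 fold changes of 0.51, 0.24 and 0.14 at the successive times. Both were chosen after their values were seen.

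Gene lists were compared by counts and medians, at an adjusted p under 0.05 whatever the fold, beside 2.13% of all genes higher in B31 and 2.46% higher in B27 and the median of 0.0044 over all genes. List members that the rule for named genes did not choose were named after their values were seen. Of 25 genes of cholesterol synthesis, which SREBP2 induces when sterols are scarce, 9 were higher in B31 and 0 lower, with a median log2 fold change of 0.071. Insig1, which retains the SREBP complex in the endoplasmic reticulum, was higher by 0.15 (SE 0.0227) and Hmgcs1 by 0.12 (SE 0.0222), while Srebf2 itself had an adjusted p of 0.885. Of 12 fatty acid synthesis genes 4 were higher (Scd2, Scd1, Elovl6 and Acsl3) and 0 lower, at a median of 0.062. Scd2, a stearoyl-CoA desaturase, was at a mean of 1224 CPM in B27 and 1365 CPM in B31 (0.16, SE 0.0280, adjusted p = 0.00197). Of 35 ATF4 and amino acid genes 6 were higher and 0 lower (median 0.030), among them Trib3 (0.29) and Chac1 (0.22), which respond to amino acid stress, while Slc38a2, the most abundant, had an adjusted p of 0.419. Of 16 NRF2 targets 5 were higher, led by the glutathione transferase Gsta4 (0.37, SE 0.0666), and 1, Nqo1, was lower (median 0.040, Txnrd1 at an adjusted p of 0.521), while 4 were higher and 0 lower with the GC trend removed.

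Several lists had members lower in B31 only. Of 29 immediate early genes, which growth factors and strain switch on within minutes, 7 were lower and 0 higher (median -0.068), with Ier3 at -0.32 (SE 0.0348), Egr3 at -0.20 (SE 0.0308) and Egr1 at -0.11 (SE 0.0229), and Klf6, the most abundant, at 0.066 (adjusted p = 0.111). Of 30 glycolysis and hypoxia genes 7 were lower and 0 higher (median -0.066). Among them lactate dehydrogenase Ldha was at a mean of 864 CPM in B27 and 778 CPM in B31 (-0.15, SE 0.0228), and the pyruvate kinase Pkm at 3123 and 2901 CPM (-0.11, SE 0.0242, adjusted p = 0.0146). Of 8 BMP targets 4 were lower, Id1 (-0.20), Id3 (-0.19, SE 0.0278, adjusted p = 2.95e-04), Smad7 (-0.16) and Id2 (-0.16), with a median of -0.17. Of 16 genes of the NF-kappaB and chemokine list 4 were lower (Cxcl5, Lif, Ccl7 and Ccl2) at a median of -0.073. Heat shock genes had 4 of 21 lower (median -0.033), with Hspa1b at -0.24 (SE 0.0319) and Hsp90ab1 at an adjusted p of 0.696. YAP and SRF targets had 3 of 18 lower (median -0.048, Actb at an adjusted p of 0.149), Notch genes 3 of 11 (Hey1, Hes1 and Jag2, against a median of 0.066, Notch2 at 0.303), TGF-beta targets 2 of 10 (Smad7 among them, median -0.038, Ski at 0.496) and DNA replication genes 2 of 20 (Gins2 and E2f1, median -0.045, Rrm2 at 0.255).

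Myogenic genes moved in different directions. Myod1, the transcription factor that commits cells to muscle, was at a mean of 112 CPM in B27 and 99.3 CPM in B31 (-0.17, SE 0.0267, adjusted p = 7.61e-04), and Myf5 at 48.8 and 43.4 CPM (-0.16, SE 0.0268, adjusted p = 0.00114), with overlapping groups. In the myoblast identity list of 14 genes, Sdc4 and Cdh15 were lower as well and Vcam1 and Megf10 higher (4 lower, 2 higher, median -0.0063). Pax7, Msc, Des and Itga7 had adjusted p-values of 0.737, 0.133, 0.387 and 0.121. Of 28 muscle differentiation genes 25 had a log2 fold change above 0 and the median was 0.40, but only 4 passed (Xirp1, Chrng, Atp2a1 and Tnni2, all higher). Some of these transcripts were rare. Tnni2, a fast troponin, had means of 0.503 and 0.742 CPM, and Chrng, the fetal subunit of the acetylcholine receptor, 1.92 and 2.64 CPM. The median of the list was 0.65 at 1 h, 0.51 at 3 h and -0.13 at 6 h, and in stretched myoblasts -0.053, so the order was not kept over times or in stretched cells. Of 32 matrix genes 4 were higher (Dcn, Postn, Mmp2 and Col5a2) and 6 lower, the latter including the metalloproteinase inhibitors Timp1, Timp2 and Timp3 (median -0.032).

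In the other lists few members passed. In 20 mitosis genes, 14 CDK inhibitors and p53 targets, 20 interferon response genes, 10 Wnt genes and 3 nuclear long noncoding RNAs none did in either direction with edgeR, and their medians were 0.0011, 0.0035, 0.024, 0.056 and 0.11. Their most abundant members, Top2a, Ccng1, B2m, Dkk2 and Malat1, had adjusted p-values of 0.381, 0.895, 0.826, 0.884 and 0.788. Of 84 ribosomal protein genes 1 (Rpl22l1) was lower (median -0.018, Rplp0 at 0.125). Of 60 histone genes Hist1h2ah was lower and Hist1h2af higher (median -0.0090), both of shared sequence. Higher in B31 were 2 of 20 endoplasmic reticulum chaperone genes (Herpud1 and Atf6, median 0.011, Hsp90b1 at 0.836), 1 of 12 FoxO and quiescence genes (Pik3ip1, median 0.0031, Cited2 at 0.126), 1 of 7 glucocorticoid targets (Tsc22d3, median -0.019, Errfi1 at 0.405) and 1 of 7 imprinted growth genes (Mest, median 0.16, H19 at 0.138). Of 19 clock genes Bhlhe40 and Cry1 were higher and Nr1d1 lower (median 0.035, Clock at 0.947). Txnip of the glucose sensing list was higher by 0.23 (SE 0.0285, adjusted p = 7.78e-05, median of 2 genes 0.23), the cold-inducible Rbm3 by 0.13 (SE 0.0281, adjusted p = 0.0103, median of 2 genes 0.080) and the metallothionein Mt1 by 0.13 (SE 0.0291, adjusted p = 0.0146, median of 3 genes 0.048).

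**Figure D3:**
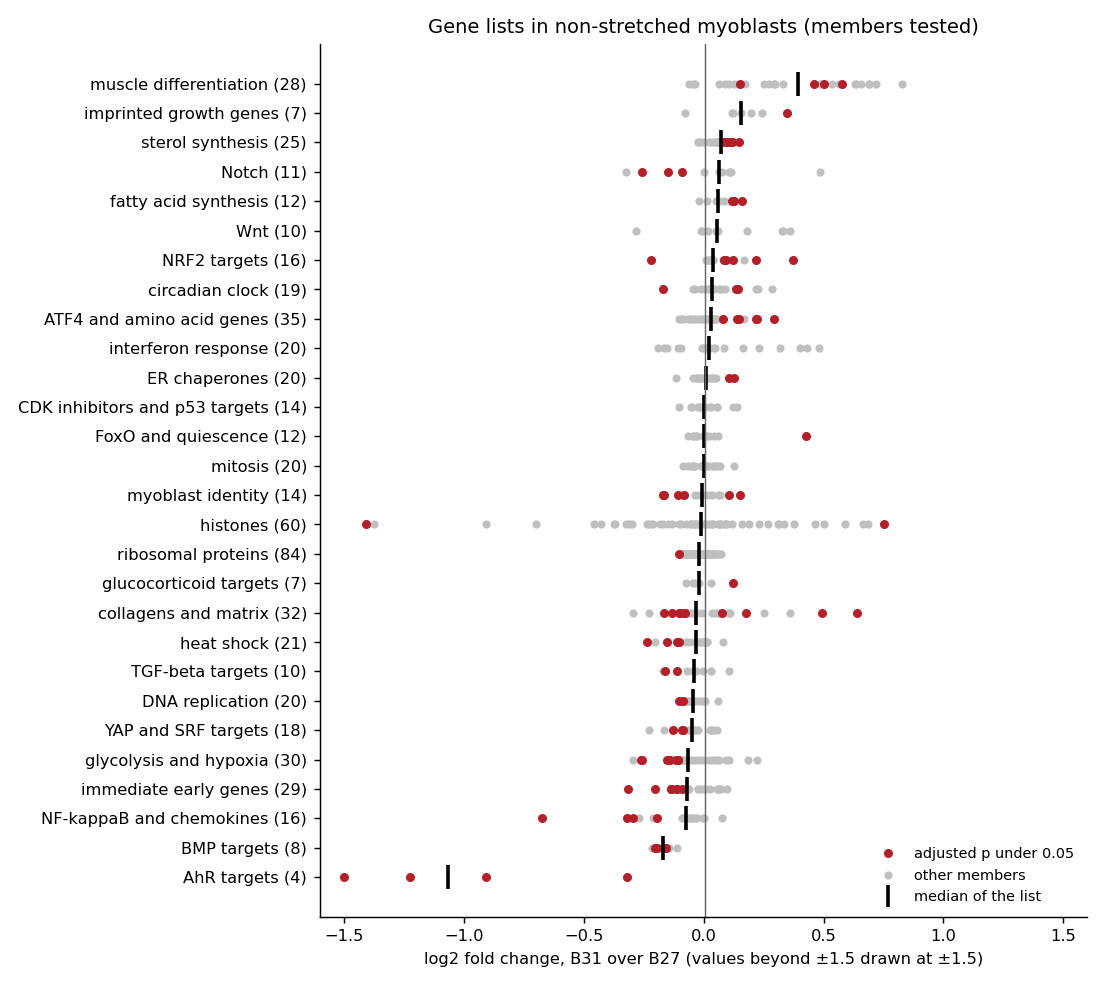
Log2 fold change of B31 over B27 for the tested members of the lists with at least 4 tested genes, with members at an adjusted p under 0.05 in red, other members in grey and the median of each list as a black bar. The AhR targets lie far to the left at a median of -1.07, while most lists lie near 0.

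Small differences followed the base composition of the transcripts. Across 11077 genes whose mean reached 100 counts and that had an annotated sequence, the log2 fold change had a Spearman correlation of -0.455 with GC content (-0.493 at 1 h, -0.199 at 3 h and -0.301 at 6 h) and of 0.120 with transcript length. These are descriptions across genes, which share the same 12 samples and are not independent replicates. In the group of 10% of genes with the lowest GC content (median 40.7%) the median log2 fold change was 0.036, and in that with the highest (59.4%) it was -0.057. Genes with an adjusted p under 0.05 had a median GC content of 47.5% where higher in B31 and 55.0% where higher in B27, beside 50% over all genes tested and 48.4% in the 10 named genes. With this trend removed in each sample, an alternative chosen after seeing the data, 28 of the 34 calls were kept among 31, and 564 of the 721 genes were kept among 845 at an adjusted p under 0.05. The AhR targets then had a median of -1.08, the sterol genes 11 of 25 higher, the immediate early genes 5 lower and 1 higher at a median of -0.023, the DNA replication genes 5 of 20 lower and the fatty acid genes 6 of 12 higher. The TGF-beta targets then had 3 of 10 lower and the Notch genes 2 of 11. In every other list each count moved by at most 1. The part of GC content in the other differences was not tested.

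**Figure D4:**
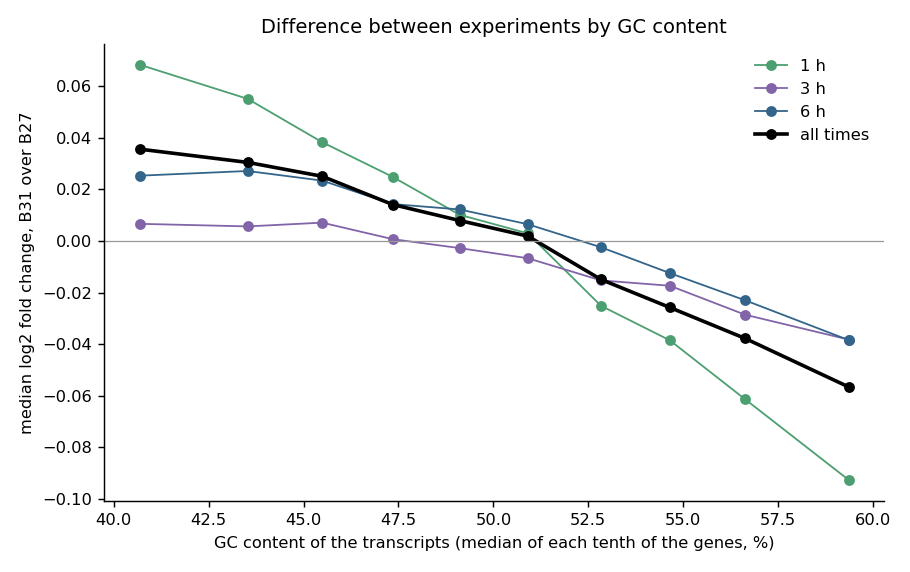
Median log2 fold change of B31 over B27 in 10 groups of similar size of genes by GC content of their transcripts, at each time and over all times. The lines fall from low to high GC content, from 0.068 to -0.093 at 1 h and less steeply at 3 h and 6 h.

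The mean log2 CPM over the tested genes of a chromosome was compared by an exact two-sided permutation test of the codes within times, whose smallest possible p is 0.00926. Of 20 chromosomes 3 (13, 18 and X) had p under 0.05 and 0 had an adjusted p under 0.05, the lowest adjusted p being 0.247. A single chromosome could not pass after adjustment with so few arrangements, so this count of 0 says little. Over genes whose mean reached 100 counts 9 chromosomes had p under 0.05, and with the median over genes 1 had, again with none after adjustment. The largest difference was 0.0553 on the X chromosome, where B27 had a mean of 3.08 ± 0.0209 and B31 of 3.14 ± 0.0337 (SD, n = 6 each, exact permutation p = 0.0278). Chromosome Y had 1 gene tested and was left out. The named genes lay on 9 different chromosomes, with Cyp1a1 and Plscr2 both on chromosome 9.

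The stretched myoblasts of the same experiments gave the same measure in other samples, 6 coded B27 and 5 coded B31, and values here are CPM on the scale of all 24 myoblast samples. A sample titled B231, whose column in the count table is headed B31, was left out because no other title has this code. With 1 h and 6 h alone, Cyp1a1 was at 12.1, 12.6, 13.9 and 14.9 CPM in the stretched B27 samples and at 2.51, 2.53 and 2.62 CPM in the stretched B31 samples. At 3 h, however, both stretched B27 samples were low, at 1.73 and 1.74 CPM, beside 1.93 and 2.65 CPM in stretched B31 and 13 and 13.5 CPM in the non-stretched B27 samples of that time. Cyp1b1 was at 126, 136, 158 and 165 CPM in stretched B27 at 1 h and 6 h and at 75.4 and 79.5 CPM at 3 h. Ahrr was at 15.6, 16.5, 19.5 and 20 CPM and at 8.67 and 9.39 CPM, and Inhbb at 26.5, 27.2, 37.3 and 37.7 CPM and at 17.4 and 18 CPM. The stretched B27 samples at 3 h thus lay among or below the B31 samples for these genes, while those at 1 h and 6 h were above all B31 samples. For all 10 named genes both of them lay below every non-stretched B27 sample, as they did for 17.2% of all genes tested, and for 9 of the 10 the stretched B27 samples at 1 h and 6 h were all above every non-stretched B31 sample, as for 500 of the 15723 genes tested. The named genes had been filtered for no overlap, and of all 22 genes called lower in B31 15 (68.2%) met the first condition and 13 the second. At 6 h both stretched B27 samples also lay below every non-stretched B27 sample for Cyp1a1, Cyp1b1, Ahrr, Inhbb, Plscr2, Adora2a and Ramp3. For Cxcl5, Tmem45a and Slc14a1 they did not. Both stretched B27 samples at 3 h lay below the highest non-stretched B31 sample for 8 of the 10, not for Adora2a and Ramp3. The same held for 14 of the 22 genes and for 11406 of the 15723.

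Over the 11 stretched samples, 0 genes were called higher in B31 (0%) and 2 lower (0.0123%), with 1166 genes at an unadjusted p under 0.05 in edgeR, and DESeq2 called 5 higher and 7 lower. The 2 calls were Lgr6, a receptor of R-spondins (-0.71, SE 0.0931, adjusted p = 0.00371, against -0.94 without stretch), and Ranbp3l, a Ran-binding protein (-0.83, SE 0.153, adjusted p = 0.0382, against -0.48 with an adjusted p of 0.112 without stretch). Nebl, an actin-binding nebulin relative called without stretch (-0.61), had -0.53 (SE 0.0725, adjusted p = 0.00426), under the fold threshold. Ranbp3l and Nebl were chosen after their values were seen. Cyp1a1 had -1.55 (SE 0.481, adjusted p = 0.475). Without the 4 samples at 3 h, an alternative chosen after seeing the data, 4 genes were called higher (0.0249%) and 8 lower (0.0498%), and Cyp1a1 had a log2 fold change of -2.35 (adjusted p = 1.97e-07), Cyp1b1 of -1.13 (9.10e-04), Ahrr of -1.0 (3.84e-05) and Inhbb of -0.70 (4.66e-05). These 4 genes had been seen to be low in stretched B27 at 3 h, so their values describe the remaining samples and are no test. Of the 721 genes with an adjusted p under 0.05 without stretch, 720 were tested in stretched cells and 623 (86.5%) had the same direction there, or 673 (93.5%) with 1 h and 6 h alone. Of these genes 25 also had an adjusted p under 0.05 there, or 49 with 1 h and 6 h alone. Over all genes tested in stretched cells 31 of 16279 did, or 57 of 16052 with 1 h and 6 h alone. The share of genes with the same direction over all genes was not computed, so the shares here are descriptions. Of the 34 called genes 33 were tested, and 27 (81.8%) had the same direction in either setting.

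**Figure D5:**
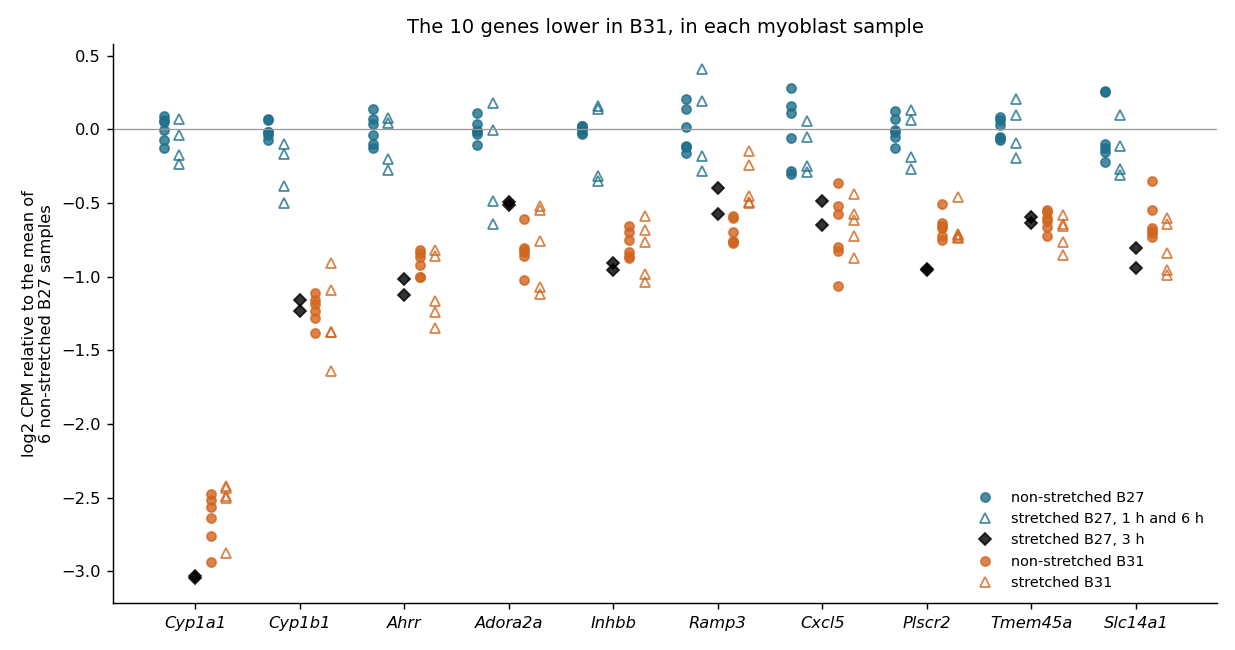
Log2 CPM of the 10 named genes in each stretched and non-stretched myoblast sample, relative to the mean of the 6 non-stretched B27 samples (line at 0). The stretched B27 samples at 3 h (black diamonds) lie below every non-stretched B27 sample for all 10 genes.

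The change of the difference with stretch was tested directly. Over the 23 samples, 0 of 16629 genes (0%) had an interaction of experiment and stretch at an adjusted p under 0.05 with edgeR, with 1034 at an unadjusted p under 0.05 and 0 with DESeq2. At 3 h alone, in 8 samples and as an alternative chosen after seeing the data, 40 of 15375 genes (0.260%) did, and at 1 h and 6 h alone, chosen likewise, 0 of 16468 did with edgeR, with 557 at an unadjusted p under 0.05. At 3 h alone the interaction, the log2 fold change of B31 over B27 with stretch minus that without, was 2.92 for Cyp1a1 (SE 0.201, adjusted p = 1.28e-07), 1.4 for Cyp1b1 (SE 0.0726, adjusted p = 6.99e-07) and 0.92 for Ahrr (SE 0.141, adjusted p = 0.0123). It was 0.50 for Tiparp, 0.91 for Inhbb, 0.91 for Plscr2, 0.75 for Cxcl5 and 0.50 for Slc14a1, all with an adjusted p under 0.05, and 0.53 for Nefl and 0.47 for Nefm, genes of neurofilament subunits with -0.32 and -0.30 without stretch. Dcn, higher in B31 without stretch, had the opposite sign at -0.83 (SE 0.158, adjusted p = 0.0277). Other genes of the 40 were negative too, such as Ace at -0.99 and Olfml2a at -1.30, named after their values were seen. Adora2a, Ramp3 and Tmem45a had adjusted p-values of 0.118, 0.0740 and 0.300. For Lgr6 and Nebl they were 0.635 and 0.945. The non-stretched samples at 3 h also entered the main comparison, in which 35 of the 40 genes had an adjusted p under 0.05. The time was chosen after several of these genes had been seen low there in stretched B27. The values and p-values at 3 h alone therefore describe these samples and are no test. What set the stretched B27 samples at 3 h apart was not tested, nor was whether their code names the experiment they came from, on which the values of this interaction and of the stretched comparison depend.

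In the differentiated cells, whose counts form a separate table and were scaled on their own, the 6 non-stretched samples coded B28 were compared with the 6 coded B25 as a measure of how far other experiments differ. There 119 genes were called higher in B28 (0.730%) and 80 higher in B25 (0.491%), and 2763 of 16309 genes had an adjusted p under 0.05 whatever the fold, the threshold used for the genes below. Cyp1a1 was at 2.98, 3.15 and 5.24 CPM in B25 and at 0.188, 0.590 and 0.771 CPM in B28, so these experiments did not overlap either (-2.71, SE 0.184, adjusted p = 1.52e-06). Cyp1b1 had 288, 310 and 319 CPM in B25 and 173, 210 and 225 CPM in B28, with all B28 samples lower (-0.57, SE 0.0572, adjusted p = 1.62e-04). Ahrr had 7.69, 8.91 and 9.92 CPM in B25 and 4.27, 5.22 and 5.37 CPM in B28 (-0.82, SE 0.0649, adjusted p = 1.01e-06). All 4 AhR targets were thus lower in one experiment of each stage, with Tiparp at -0.30 (SE 0.0281, adjusted p = 5.87e-06), and Inhbb and Tmem45a were lower in B28 too (-0.26 and -0.44, adjusted p = 1.19e-06 and 1.22e-04). The further AhR targets were lower in B28 as well, Aldh3a1 at medians of 101 and 67.9 CPM (-0.70, SE 0.187, adjusted p = 0.0366), Nqo1 at 79.6 and 64.8 CPM (-0.46, SE 0.124, adjusted p = 0.0392) and Ugt1a6a at 15.2 and 11.8 CPM (-0.39, SE 0.0976, adjusted p = 0.0226). The groups of Aldh3a1 and Nqo1 did not overlap, and those of Ugt1a6a did. The 6 h B28 replicate 9 was the lowest sample for these 3 genes, at 32.8, 39.2 and 9.17 CPM. In the same order the other B28 samples ran from 61.2 to 76.7, from 61.3 to 68.6 and from 11.3 to 14.5 CPM. No value without this sample is given. Adora2a, Ramp3, Cxcl5, Plscr2 and Slc14a1 had adjusted p-values between 0.437 and 0.992 there. Codes B25 and B28 name other experiments than B27 and B31, so the direction of one comparison bears no fixed relation to that of the other.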

How the data were processed

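RNA of 48 C2C12 samples was sequenced after a stranded mRNA preparation, although the labels name the molecule nuclear RNA. The authors aligned reads to mm10 with STAR, quantified them with Salmon and deposited whole-number counts per gene symbol, 1 table per stage, without normalization as far as the values show. The name of the table holds the word nobatch, whose meaning is not stated, so whether batches were treated in some way before the deposit is not known. All 48 columns were mapped to samples through their headers and labels. After filterByExpr had dropped weakly expressed genes and TMM factors had been computed, codes were compared with edgeR 4.0.16 (quasi-likelihood, robust) in R 4.3.3, with time as a factor. log2 CPM used a prior count of 1. DESeq2 1.42.0 and limma 3.58.1 served as alternatives. The fit was tested on simulated data.

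Named genes were, among calls whose mean reached 100 counts, no overlap of the 6 against 6 samples, a symbol that is not a predicted gene and under 20% of 31-base stretches shared with other genes, the 12 largest rises and the 12 largest falls. For the time interaction and the stretched samples they were the 5 lowest p under the same filters except overlap, and for each of 33 gene lists the called members, at most 4, or else the most abundant member. Myoblast markers were always given. GENCODE vM21 transcripts matched 45213 of 47480 symbols (95.2%). The list of mitochondrially encoded genes had 0 symbols in the table. The samples and lists were chosen with earlier results of these data known. With 2 experiments, p-values measure the spread between samples and compare these particular experiments, and the code cannot be told apart from anything else that differed between them.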

Additional observations from a re-analysis of the deposited data

Results flagged for a closer look

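In 36 groups of samples, 34 of them of 6, examined for a value far from the others, 2 were past the critical value (0.625 for 6 samples), while chance gives about 1 in 20 groups. The 1 h B27 replicate 7 had 3.66% of its counts in Rn18s-rs5, a ribosomal RNA gene, against 0.650% to 1.04% in the other non-stretched B27 samples. Without that sample 14 genes in place of 22 were called lower in B31 and 8 in place of 12 higher. The stretched 1 h B27 replicate 7 had 5.72%, against 1.06% to 2.28% in the other stretched B27 samples, and without it 1 gene in place of 2 was called lower in stretched B31.

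The difference between the experiments was not the same with and without stretch at 3 h. Over all times 0 of 16629 genes had an interaction of experiment and stretch at an adjusted p under 0.05 with edgeR in 23 samples. At 3 h alone, a time chosen after seeing the data, 40 of 15375 genes had this interaction in 8 samples. Its log2 value was 2.92 for Cyp1a1, 1.4 for Cyp1b1, 0.92 for Ahrr, 0.91 for Inhbb, 0.75 for Cxcl5, 0.91 for Plscr2, 0.50 for Slc14a1 and 0.50 for Tiparp. In each of these genes the stretched B27 samples at 3 h were lower than the non-stretched B27 samples, and the cause was not tested. Other genes of the 40 had a negative value, such as Dcn (-0.83), Ace (-0.99) and Olfml2a (-1.30). Whether the code of the stretched B27 samples at 3 h names their experiment was not tested either. The non-stretched samples of that time also entered the comparison that found most of these genes. The values at 3 h alone are thus a description and no test.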

How the results depend on the processing

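Of 260 values of the 10 named genes under other settings, 246 kept the same outcome, 14 fell short of a threshold and 0 changed direction. Over the 15 called genes followed, 52 of 388 values fell short and 0 changed direction. Genes not called took both signs in several cases, such as Top2a from -0.011 to 0.12. Genes called higher in B31 (12) numbered 9 with DESeq2, 62 without a filter on low counts, 3 without time in the model, 0 when tested against the fold threshold (glmTreat, 41 at unadjusted p under 0.05 in either direction), 335 without a fold cutoff, 2 at 1 h, 35 at 3 h and 2 at 6 h alone. Leaving out 1 sample gave 8 to 20, the last without the 6 h B31 replicate 10. Genes called lower (22) numbered 16 with DESeq2, 60 without a filter, 12 without time, 4 with glmTreat and 386 without a cutoff. They numbered 4 at 1 h, 18 at 3 h and 21 at 6 h alone. Leaving out 1 sample gave 14 to 26, the first without the 1 h B27 replicate 7.

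Deviations of a replicate number at 2 times had correlations across genes from -0.0192 to 0.268, with 3 of 6 at 0.156 or more, so some deviation was shared. The comparison did not pair samples by number. With the number as a replicate block in limma-voom 6 genes were higher and 16 lower, and as a fixed replicate block 17 genes had a time interaction. That count of 0 was 10 with DESeq2, 6 with the GC trend removed (chosen after seeing the data) and 0 to 197 with 1 sample left out: 197 without the 1 h B31 replicate 10, 18 without replicate 9 and 1 without the 3 h B31 replicate 10 or the 6 h B27 replicate 7.

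In stretched cells, genes higher in B31 (0) numbered 5 with DESeq2, 10 without a cutoff, 1 with the B231 sample as B31 and 4 at 1 h and 6 h, and 0 to 1 with 1 sample left out (1 without the 3 h or 6 h B31 replicate 10 or the 6 h B27 replicate 7). Genes lower (2) numbered 7, 21, 5 and 8 in these settings and 1 to 3 with 1 sample left out (1 without the 1 h B27 replicate 7, the 1 h or 6 h B31 replicate 10, the 3 h B27 replicate 7 or 8, the 6 h B27 replicate 7 or the 6 h B31 replicate 9). The stretch interaction (0) had 40 genes at 3 h alone. The settings with B231 and with single times of stretched cells were chosen after seeing the data. In the differentiated cells 165 genes in place of 199 were called with DESeq2. Settings without a cutoff, without a filter or with fewer samples change what can be called, and for the other changes the cause was not tested. Depth limits the 20 calls with a mean under 100 counts.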

Other observations

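The stretched 1 h sample titled B231 (replicate 9) was left out of the comparisons except where stated. Its levels were 4.17 CPM for Cyp1a1, 84.7 CPM for Cyp1b1, 11.5 CPM for Ahrr and 25.1 CPM for Inhbb. Each lay between the stretched B31 sample and the stretched B27 samples of that time, and nearer to the B31 sample. In the same order the stretched B31 sample had 2.62, 68.4, 10.4 and 22.5 CPM. The lower stretched B27 value was 13.9, 158, 19.5 and 37.3 CPM. Glutathione transferase Gsta1, which conjugates electrophiles, was at 169 CPM in the sample titled B231, beside 104 CPM in the stretched B31 sample and 73.6 and 74.5 CPM in the stretched B27 samples.

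Gsta1 and Gsta2 lie on chromosome 9, as does Gsta4, and share 92.9% and 60.7% of their 31-base stretches with other genes, so their counts depend on how reads were divided. They also had higher levels in B31 without stretch. Gsta1 had a lowest, median and highest level of 49.3, 53 and 70.8 CPM in B27 and of 63.4, 84.7 and 98.3 CPM in B31 (0.51, SE 0.0715, edgeR adjusted p = 0.00414). The groups overlapped. In stretched myoblasts the log2 fold change was 0.51 (SE 0.0671, adjusted p = 0.0222) for Gsta1 and 0.43 (SE 0.0497, adjusted p = 0.00165) for Gsta2. These genes were chosen after their values were seen.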
